A study of Mus musculus with 4 samples.

Results

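The 4 Hox clusters were followed in cultured mouse aortic smooth muscle cells of 2 genotypes, with and without LDL. Members were all probes whose RefSeq accession belongs to a gene named Hoxa, Hoxb, Hoxc or Hoxd followed by a number. This gave 44 probes for 39 genes, out of 55679 probes and 21367 named genes on the array, and all 39 such genes of the gene table had a probe. The Hoxa cluster had 11 members, the Hoxb cluster 10, the Hoxc cluster 9 and the Hoxd cluster 9.

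Cells came from the thoracic aorta of C57BL/6J mice, which were wild type (WT) or LAMP-2A knockouts (L2AKO). LAMP-2A is the receptor through which chaperone-mediated autophagy brings proteins into lysosomes. They were grown from 5 aortas and used at passages 12 to 16, and the labels do not say whether these were 5 per genotype or 5 in all. Every group was kept for 24 h in DMEM with 5% LPDS. The LDL groups also received LDL at 150 µg/ml cholesterol with 0.1 U/ml bovine lipoprotein lipase. The labels do not say if the control groups also had lipase. RNA pooled from a triplicate went onto 1 array per group, so WT control, WT LDL, L2AKO control and L2AKO LDL are 4 single values with no replicate error, and no difference below has a p-value. The labels do not say whether a triplicate came from separate cultures, and a genotype cannot be told apart from the particular cells grown for it.

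Hox genes encode homeodomain transcription factors that give cells along the body axis their regional identity. In each cluster the genes lie in the order of their paralogue numbers, low numbers being expressed towards the head and from early on, high numbers towards the tail and later. The pattern is kept in adult mesenchymal cells, including smooth muscle and fibroblasts of different regions, and is held in place by Polycomb and trithorax chromatin regulators, while retinoic acid sets up much of it in the embryo.

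Values are normalised signals, the log2 of the processed signal minus the 75th percentile of the same array. Those percentiles were signals of 318.8, 370.6, 389.4 and 433.8 on the WT control, WT LDL, L2AKO control and L2AKO LDL arrays, and 4 values in a row below always follow this order. The scanner software marked 47.2%, 48.4%, 47.2% and 52.0% of probes as well above background, and no spot as saturated. A value that is not well above background is called dim. For probes printed 10 times on an array and well above background, the median SD between spots of the same probe was at most 0.054. This gives 0.08 for a difference of 2 spots and covers technical spread within an array only. Of the 4 arrays only that of L2AKO LDL was on slide 2, so slide and group cannot be told apart wherever it is used. Of 2 probes of the targeted gene, Lamp2, 1 was lower in L2AKO by log2 differences of -1.38 without and -1.32 with LDL, and the other differed by 0.04 and -0.29, on the same arrays. Smooth muscle markers were well above background for 8, 7, 7 and 7 of 11 genes, with Myh11, Lmod1 and Des dim on every array.

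Of the 39 Hox genes, 26 were well above background on at least 1 array and 18 on all 4. Of all 21367 genes, 14768 were so on at least 1 array and 12491 on all 4. By array there were 23, 23, 20 and 21 Hox genes, beside 13286, 13415, 13230 and 13922 of all genes. The Hox genes seen were of low and middle paralogue number. On some array 25 of 27 genes numbered 1 to 9 were seen, against 1 of 12 genes numbered 10 to 13, which was Hoxa10. The 13 genes that stayed dim on every array were Hoxa11, Hoxa13, Hoxb1, Hoxb13, Hoxc10, Hoxc11, Hoxc12, Hoxc13, Hoxd1, Hoxd10, Hoxd11, Hoxd12 and Hoxd13. For 8 of these 13 the signal was at or below the 95th percentile of the 308 negative control spots on every array. Hoxa11, Hoxa13, Hoxc10, Hoxc13 and Hoxd12 went past that level on some arrays while staying dim, with signals of at most 18.2. Apart from Hoxa10, the genes numbered 10 to 13, known for patterning limb ends, genitalia and tail, thus stayed dim on every array.

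The clusters differed in how many members each genotype showed. The Hoxa cluster had 8 members well above background on each array and the Hoxb cluster had 8 on each. The Hoxc cluster had 3, 3, 4 and 5. The count of 5 includes Hoxc5, well above background only on the L2AKO LDL array, which was on slide 2. Its signal was 31.7 there and 23.5 on the L2AKO control array, where it was dim. The Hoxd cluster had 4 on both WT arrays and 0 on both L2AKO arrays. Over all clusters, 5 genes were well above background on both WT arrays and dim on both L2AKO arrays, namely Hoxa10, Hoxd3, Hoxd4, Hoxd8 and Hoxd9. That is 19.2% of the 26 Hox genes seen on some array, beside 1.63% of the 14768 genes of the whole array seen on some array. Hoxa6 and Hoxc8 showed the opposite, which is 7.69% of the 26, beside 2.23% over all genes.

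**Figure D1:**
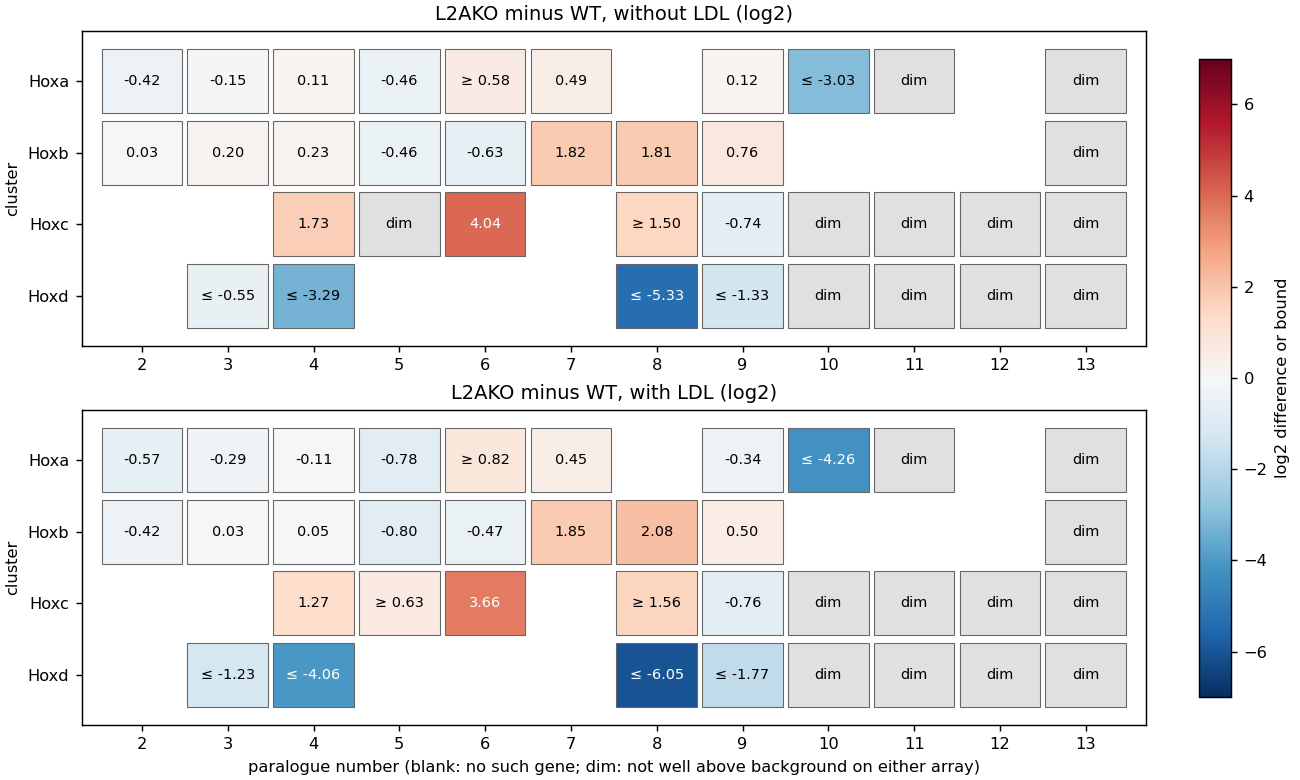
Log2 difference between L2AKO and WT for Hox genes with paralogue numbers 2 to 13, laid out by cluster (rows) and paralogue number (columns), without LDL above and with LDL below. A sign of at least or at most marks a bound for a gene that is dim in 1 genotype, and grey cells are dim on both arrays. The deepest blue cells are Hoxd8, Hoxd4 and Hoxa10. Hoxd9 is paler, and Hoxd3 is pale above, with a bound of -0.55. Other cells with small negative differences, such as Hoxc9 and Hoxb6, are also pale blue. The deepest red cell is Hoxc6, with 4.04 above and 3.66 below.

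The comparison of genotypes without LDL used 2 arrays of the same slide. A gene was counted as different at 2-fold, by its difference where it was well above background on both arrays or by a bound where it was dim on 1. The bound sets the bright value against a floor for the dim array. That floor is the array's faintest probe still well above background or, if higher, the dim value itself, so the true difference may be larger. A bound holds for this processing only, and another treatment of background gave smaller differences for some genes. Of 25 Hox genes seen on 1 of the 2 arrays or both, 5 were at least 2-fold higher in L2AKO (8.91% of all genes tested) and 4 were at least 2-fold lower (10.4% of all genes). With LDL, on 2 other arrays and across slides, 26 were compared, of which 5 were higher (9.12% of all genes) and 5 lower (12.3% of all genes). The 5 higher genes were the same in both comparisons, Hoxb7, Hoxb8, Hoxc4, Hoxc6 and Hoxc8, and the 4 lower genes Hoxa10, Hoxd4, Hoxd8 and Hoxd9 were joined by Hoxd3 with LDL. Of these, Hoxc8 and Hoxd9 in both comparisons, and Hoxc4 and Hoxd3 with LDL, were under 2-fold after normexp background correction and in the authors' deposited values. The 2 comparisons share no array, but the labels do not say that their cells were grown separately.

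In the Hoxd cluster every gene seen in WT was dim in L2AKO. Hoxd8, a gene of the trunk and proximal limb, had processed signals of 640, 725, 4.76 and 2.89, or normalised signals of 1.01, 0.97, -6.35 and -7.23. It lay above the 75th percentile of both WT arrays, and on both L2AKO arrays it was under the 95th percentile of the negative control spots, which was 5.38 without and 3.28 with LDL. The difference was at least 40.3-fold without LDL and at least 66.0-fold with LDL, lower in L2AKO. Other processing gave log2 differences of Hoxd8 as small as -3.22 without and -3.42 with LDL. Hoxd4, which acts in the hindbrain and neck vertebrae, had processed signals of 156, 184, 4.87 and 2.96 and was at least 9.79-fold and 16.7-fold lower in L2AKO. For Hoxd4 other processing gave log2 differences as small as -1.61 without and -1.73 with LDL. The median negative control spots of the WT arrays were 3.89 and 4.02, far under the WT values of Hoxd4, while both L2AKO values again lay under the negative control limit.

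Hoxd9, a gene of the lower trunk and limb, had normalised signals of -2.99, -3.31, -6.50 and -7.33 and was at least 2.52-fold lower without and 3.40-fold lower with LDL. After normexp its log2 differences were -0.48 and -0.50. Hoxd3, which patterns the first neck vertebrae, was only just well above background in WT, with -3.78, -3.85, -6.30 and -7.18. Its bounds were 1.46-fold without and 2.34-fold with LDL, so it passed 2-fold only with LDL, where the limit of the dim array was lower (-5.08 against -4.33). All 4 genes were on the same side in both comparisons, dim in L2AKO and not in WT. The gene models of Hoxd3 and Hoxd4 overlap in the gene table, so a probe of one may also lie within the model of the other.

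The noncoding RNA Hoxd3os1, whose model overlaps that of Hoxd3, went the same way. Its normalised signals were -1.65, -2.00, -6.42 and -7.28, a log2 bound of -2.68 without and -3.07 with LDL. Hoxd1 and Hoxd10 to Hoxd13 were dim on every array, so nothing can be said of a difference in those 5.

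The start regions of these 4 Hoxd genes are printed in 5′ to 3′ direction, with those of Hoxc4 and Hoxb8, which were higher in L2AKO, for comparison. Each runs from 250 bases before to 50 after the transcript start in RefSeq, build GRCm38.p6. Capitals mark AGGTCA on either strand (TGACCT as printed where it lies on the other), the half-site bound by retinoic acid receptors and other nuclear receptors.
Hoxd9 (chr2:74697513-74697812, plus strand): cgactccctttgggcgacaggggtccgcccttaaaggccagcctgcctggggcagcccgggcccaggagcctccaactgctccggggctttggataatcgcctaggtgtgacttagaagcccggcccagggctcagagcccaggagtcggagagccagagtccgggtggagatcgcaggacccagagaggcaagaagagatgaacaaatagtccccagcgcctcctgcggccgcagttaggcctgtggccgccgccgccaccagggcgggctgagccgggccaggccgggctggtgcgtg
Hoxd8 (chr2:74704365-74704664, plus strand): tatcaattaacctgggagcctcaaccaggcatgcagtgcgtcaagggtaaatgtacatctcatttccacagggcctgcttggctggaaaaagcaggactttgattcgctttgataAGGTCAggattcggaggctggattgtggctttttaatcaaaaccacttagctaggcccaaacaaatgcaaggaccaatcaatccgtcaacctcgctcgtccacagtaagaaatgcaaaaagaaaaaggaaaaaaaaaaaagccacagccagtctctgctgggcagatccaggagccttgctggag
Hoxd3 (chr2:74711743-74712042, plus strand): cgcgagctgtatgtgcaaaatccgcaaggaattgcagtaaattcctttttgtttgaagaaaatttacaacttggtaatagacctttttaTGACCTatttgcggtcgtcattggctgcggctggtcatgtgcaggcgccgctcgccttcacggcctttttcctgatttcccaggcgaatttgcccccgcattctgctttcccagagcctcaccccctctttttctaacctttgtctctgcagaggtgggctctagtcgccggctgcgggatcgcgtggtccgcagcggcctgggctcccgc
Hoxd4 (chr2:74721728-74722027, plus strand): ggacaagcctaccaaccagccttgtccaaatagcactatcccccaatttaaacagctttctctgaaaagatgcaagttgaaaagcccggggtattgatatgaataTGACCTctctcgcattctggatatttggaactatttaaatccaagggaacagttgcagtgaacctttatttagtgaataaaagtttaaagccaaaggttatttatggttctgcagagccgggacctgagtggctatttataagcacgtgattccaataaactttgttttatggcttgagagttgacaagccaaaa
Hoxc4 (chr15:103034145-103034444, plus strand): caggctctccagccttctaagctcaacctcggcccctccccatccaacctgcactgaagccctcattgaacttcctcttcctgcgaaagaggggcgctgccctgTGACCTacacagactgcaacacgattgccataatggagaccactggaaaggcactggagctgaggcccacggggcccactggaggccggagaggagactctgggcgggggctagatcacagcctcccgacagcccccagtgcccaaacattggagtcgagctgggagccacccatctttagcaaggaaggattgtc
Hoxb8 (chr11:96281655-96281954, plus strand): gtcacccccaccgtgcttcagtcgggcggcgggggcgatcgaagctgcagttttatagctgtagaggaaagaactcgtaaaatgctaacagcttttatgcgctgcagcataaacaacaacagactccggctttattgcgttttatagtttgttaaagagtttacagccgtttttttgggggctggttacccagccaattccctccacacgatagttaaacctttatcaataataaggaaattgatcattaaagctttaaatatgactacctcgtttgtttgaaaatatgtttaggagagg

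The RefSeq promoter table held 24 start regions for 22 of the 39 Hox genes. AGGTCA was found in 7 of these 24 (29.2%), beside 16.3% of 32851 start regions of the same length. Hoxd3, Hoxd4, Hoxd8 and Hoxc4 had 1 match each, as did Hoxa5, Hoxb4 and Hoxd10, while Hoxd9, Hoxb8 and both starts of Hoxa10 had 0. The letters therefore occurred in genes that were lower, higher and little different in L2AKO. TGATNNAT, the letters bound by Hox proteins together with Pbx partners, was found on either strand in 4 of the 24 (16.7%), beside 8.85% of all, and among the regions printed only in that of Hoxb8. Median GC content was 57.7% in the Hox start regions and 52.7% in all. These matches are a description of the letters and not of binding.

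**Figure D2:**
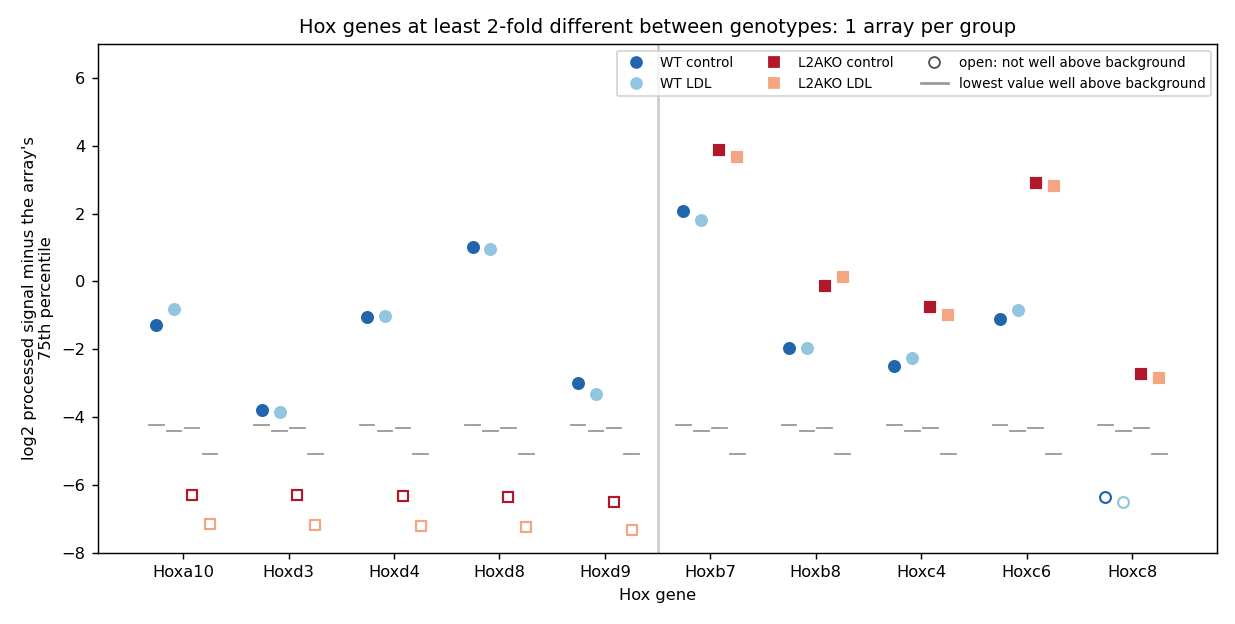
Normalised signal (log2 processed signal minus the array's 75th percentile) on each of the 4 arrays for the 10 Hox genes at least 2-fold different between genotypes in either comparison, 1 point per array. Open symbols are dim and short grey lines are the lowest value well above background on that array. For the 5 genes on the left the L2AKO points lie below the grey lines, and for the 5 on the right both L2AKO points lie above both WT points.

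In the Hoxa cluster 1 gene stood apart. Hoxa10, which takes part in patterning the reproductive tract and the hind part of the trunk, had processed signals of 130, 210, 4.94 and 3.06. Its normalised signals were -1.30, -0.82, -6.30 and -7.15, so it was at least 8.15-fold lower in L2AKO without and 19.2-fold lower with LDL. Both L2AKO signals lay under the 95th percentile of the negative controls. For Hoxa10 other processing gave log2 differences as small as -1.39 without and -1.93 with LDL. Next to it, Hoxa9, a gene of blood stem cells that also acts in vessels, had -3.65, -3.21, -3.52 and -3.55, differences of 0.12 and -0.34. A second probe of Hoxa9 was well above background on the WT control array only. With the mean over both probes the difference without LDL turned from 0.12 to -0.65.

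The other Hoxa genes described here were within 2-fold in both comparisons. Hoxa2, which sets the identity of the second pharyngeal arch, had 1.04, 1.38, 0.62 and 0.80. Hoxa3, needed for the organs of the third arch and for its artery, had 3.17, 3.16, 3.02 and 2.86. Both lay above the 75th percentile on every array, and their differences between genotypes ranged from -0.57 to -0.15. The model of Hoxa3 overlaps those of Hoxa4, Hoxa5 and Hoxa6 in the gene table.

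Hoxa4 had -1.84, -1.50, -1.73 and -1.61, and Hoxa5, known for lung development, had 1.90, 2.25, 1.44 and 1.48. Hoxa5 differed by -0.46 without and -0.78 with LDL. Hoxa7 was somewhat higher in L2AKO, with 3.17, 3.35, 3.66 and 3.80. Hoxa6 was dim on both WT arrays (-4.51 and -4.31) and well above background on both L2AKO arrays (-3.65 and -3.50), which bounds it at 1.50-fold and 1.76-fold higher in L2AKO, under the 2-fold limit.

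In the Hoxb cluster every member from Hoxb2 to Hoxb9 was well above background on all 4 arrays, so each difference was measured. Those of Hoxb2 to Hoxb6 lay between -0.63 and 0.23 without LDL and between -0.80 and 0.05 with LDL. Those of Hoxb7 to Hoxb9 lay between 0.76 and 1.82 and between 0.50 and 2.08. Hoxb6 and Hoxb7, which are neighbours, had opposite signs in both comparisons.

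Hoxb7, a trunk gene also studied in growth of mesenchymal cells, had 2.07, 1.82, 3.89 and 3.67 and was 3.53-fold higher in L2AKO without and 3.60-fold higher with LDL. Hoxb8, known for keeping myeloid progenitors from maturing, had -1.95, -1.96, -0.15 and 0.12, which is 3.49-fold and 4.23-fold higher. For both genes the control and LDL arrays of a genotype were within 0.27 of each other. Hoxb9 had 0.70, 0.45, 1.47 and 0.96, differences of 0.76 and 0.50, under 2-fold.

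At the other end of the cluster, Hoxb2, a hindbrain gene, had 2.61, 2.79, 2.64 and 2.38. Hoxb3 had 1.65, 1.98, 1.85 and 2.01 on its brighter probe and -1.0, -0.55, -0.93 and -0.22 on the other. Hoxb4, known for expanding blood stem cells, varied little, with 3.83, 3.98, 4.07 and 4.03. The gene models of Hoxb3 and Hoxb4 overlap.

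Hoxb5 had 2.21, 2.51, 1.75 and 1.71, and Hoxb6 had 3.06, 2.98, 2.43 and 2.51, both lower in L2AKO by under 2-fold. The noncoding RNA Hoxb5os, whose model overlaps those of Hoxb5 and Hoxb6, was 4.50, 4.54, 2.05 and 2.14, log2 differences of -2.44 and -2.40. Since the strand read by each probe was not checked, its signal and those of Hoxb5 and Hoxb6 may not be separate.

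In the Hoxc cluster the difference pointed the other way from the Hoxd cluster. Hoxc6, a gene of the thoracic trunk, was well above background on every array, with normalised signals of -1.12, -0.84, 2.92 and 2.82. Both L2AKO values lay above the 75th percentile and both WT values below it, and the gene was 16.4-fold higher in L2AKO without and 12.6-fold higher with LDL, more than any other measured Hox gene in either comparison.

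Hoxc8, a gene of the lower thoracic spine and its ribs, had processed signals of 3.87, 4.06, 58.4 and 60.6. It was under the negative control limit of 4.63 and 5.03 on the WT arrays and at least 2.82-fold and 2.95-fold higher in L2AKO. After normexp its log2 differences were 0.59 without and 0.63 with LDL, under 2-fold. Hoxc4 had -2.49, -2.27, -0.76 and -1.0, which is 3.32-fold higher without and 2.42-fold higher with LDL. With LDL its log2 difference dropped under 2-fold in the authors' deposited values (0.97) and after normexp (0.85). Hoxc5, between Hoxc4 and Hoxc6, was dim on 3 arrays, with processed signals of 5.26, 5.78, 23.5 and 31.7, and is bounded at 1.55-fold higher in L2AKO with LDL. Hoxc9, which directs motor neurons of the thoracic spinal cord, was lower in L2AKO, with -2.11, -1.90, -2.85 and -2.66, differences of -0.74 and -0.76. As in the Hoxb cluster, neighbours in the row had opposite signs, here Hoxc8 and Hoxc9.

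Paralogues of the same number differed in the same direction in some groups and not in others. In group 5, Hoxa5 and Hoxb5 both differed by -0.46 without LDL, with Hoxc5 dim on both arrays. In group 7, Hoxa7 and Hoxb7 differed by 0.49 and 1.82. Groups 4, 8 and 9 did not move as a group. In group 4, Hoxa4 and Hoxb4 differed by 0.11 and 0.23 without LDL, while Hoxc4 differed by 1.73 and Hoxd4 by at most -3.29. In group 8, Hoxb8 differed by 1.81 and Hoxc8 by at least 1.50, while Hoxd8 differed by at most -5.33. In group 9, Hoxa9 and Hoxb9 differed by 0.12 and 0.76, Hoxc9 by -0.74 and Hoxd9 by at most -1.33. Levels of different paralogues come from different probes and are not set against each other.

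**Figure D3:**
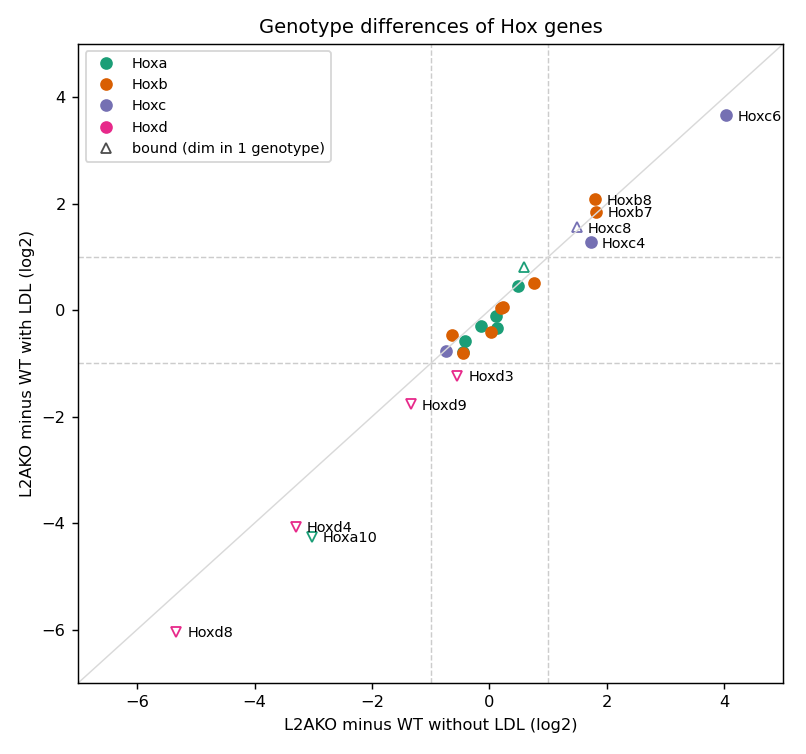
Log2 difference between L2AKO and WT without LDL (horizontal) and with LDL (vertical) for the Hox genes described here that had a difference or bound in both, coloured by cluster. Open triangles are bounds, dashed lines are 2-fold and the solid line is equality. The 4 Hoxd triangles and Hoxa10 lie at the lower left and Hoxc6 at the upper right, and the other measured genes within 2-fold gather around 0.

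Over the 18 Hox genes measured in both genotypes, the median difference without LDL was 0.12, beside -0.01 over all genes, and the median absolute difference 0.46 beside 0.36. With LDL the median was -0.20 beside -0.05, and the median absolute difference 0.49 beside 0.42. These medians leave out the genes that had bounds only, which were the Hoxd genes, Hoxa10, Hoxa6, Hoxc8 and, with LDL, Hoxc5. Fewer cells of a kind and less RNA per cell cannot be told apart in RNA from a whole culture.

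Genes next to the clusters were taken 8 on each side, protein-coding and with a probe, a window chosen after values were seen. Their counts stand beside 8.91% higher and 10.4% lower of all genes without LDL, and 9.12% and 12.3% with LDL. Beside the Hoxd cluster, 14 flanking genes were tested without LDL and 2 passed 2-fold, both higher in L2AKO, Ttc30a2 at 1.08 and Pde11a at a bound of 2.10. With LDL, 0 of 13 passed. Mtx2, the neighbour at the Hoxd1 end, had differences of 0.10 and -0.22, and Lnpk, near the other end beyond the dim Evx2, had -0.74 and -0.94. No flanking gene tested beside the Hoxd cluster was 2-fold lower in L2AKO in either comparison. With so few genes, and 10.4% and 12.3% of all genes lower, this count does not set the flanks apart from other genes.

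Beside the Hoxc cluster, 1 of 15 flanking genes passed 2-fold without LDL, the blood cell factor Nfe2 at 2.67, and 2 of 15 did with LDL. Smug1, the neighbour of Hoxc4, had 0.14 and 0.09, and Calcoco1, at the Hoxc13 end, had 0.22 and 0.81. Beside the Hoxa cluster 0 of 12 passed without and 1 of 12 with LDL. Beside the Hoxb cluster 2 of 12 passed each time. Of these, Ttll6 next to Hoxb13 was dim in L2AKO only (bounds of -2.22 and -3.35), and Igf2bp1 was higher by 1.43 without LDL.

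**Figure D4:**
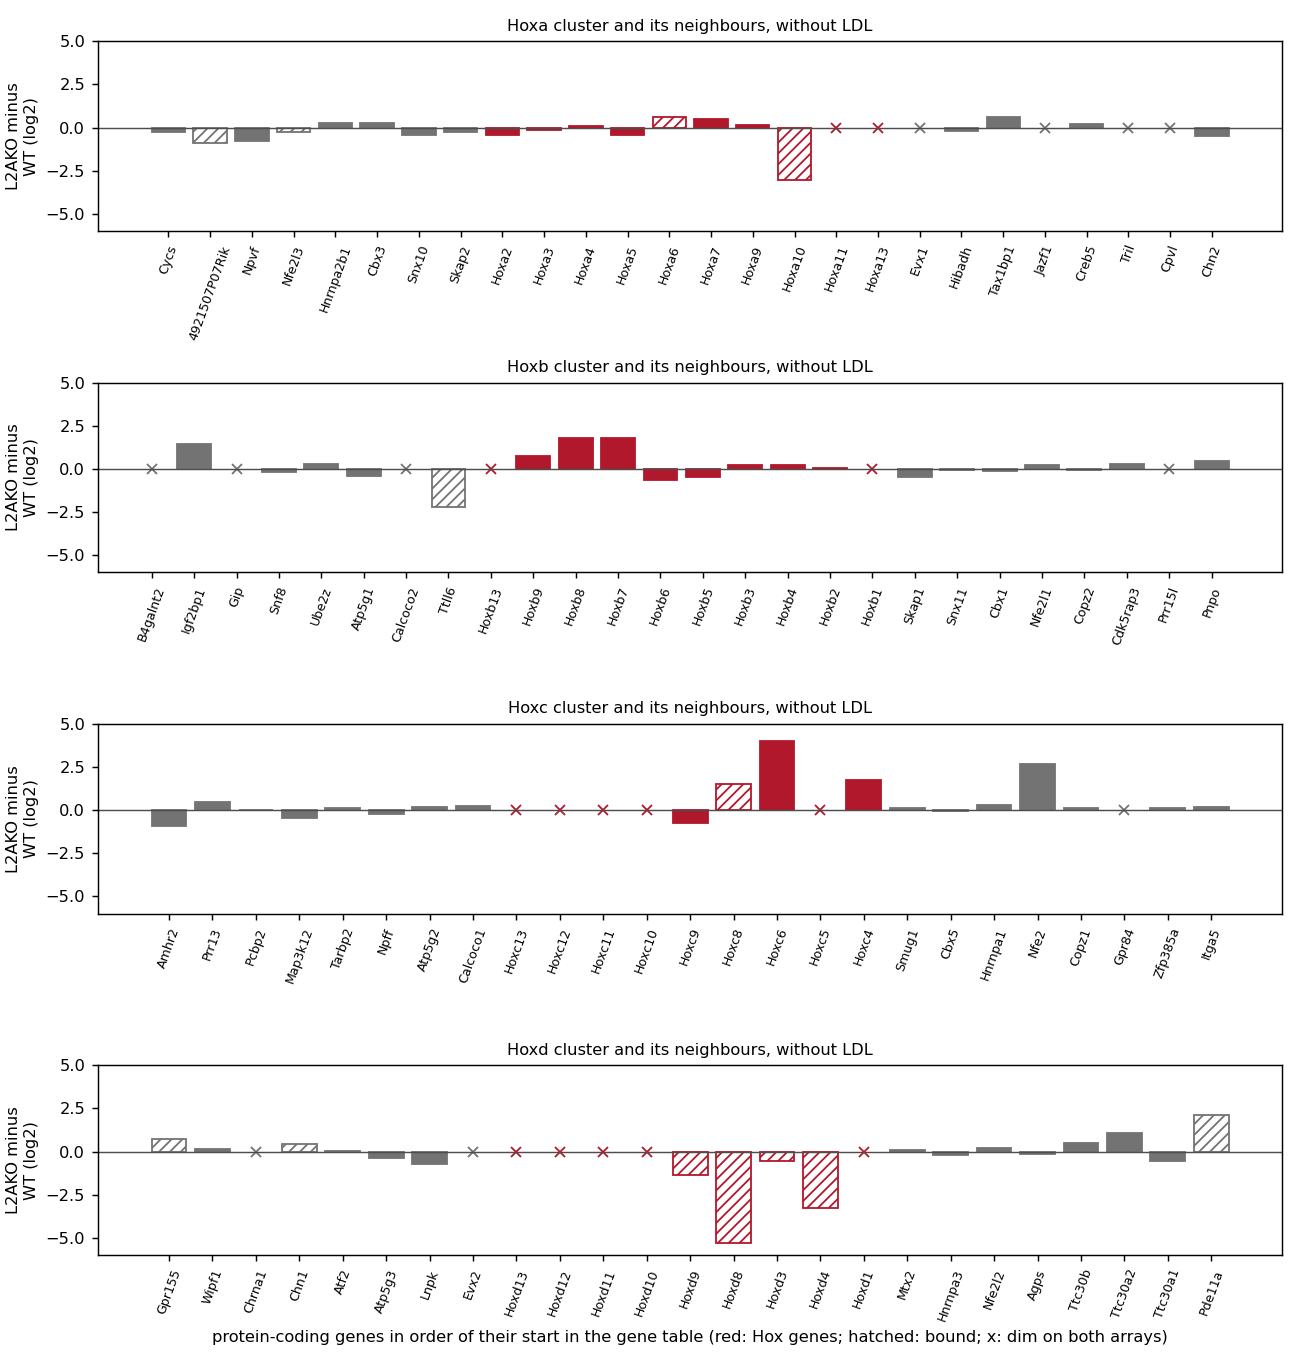
Log2 difference between L2AKO and WT without LDL for the Hox genes described here in each cluster (red) and 8 protein-coding neighbours with a probe on each side (grey), in the order of their start in the gene table. Filled bars are measured differences, hatched bars are bounds and crosses are genes dim on both arrays. The hatched bars from Hoxd9 to Hoxd4 point down while the grey bars beside them lie between -0.74 and 2.10.

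No Hox gene compared passed 2-fold with LDL in either genotype. In WT, 0 of 23 genes were 2-fold higher (0.976% of all genes) and 0 lower (1.97% of all genes), with differences from -0.32 for Hoxd9 to 0.48 for Hoxa10. In L2AKO, 0 of 21 were higher (1.15% of all genes) and 0 lower (2.59% of all genes), with differences from -0.51 for Hoxb9 to 0.27 for Hoxb8, across slides. Of these 21, 20 were measured and Hoxc5 has only a bound, 1.21-fold higher with LDL. With no replicate there is no test of either count.

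In WT, 6 of 8 Hoxa genes and 14 of all 23 Hox genes were higher with LDL, beside 5103 of 12977 measured genes of the whole array. Among the 6 were Hoxa9 by 0.43, Hoxa5 by 0.35 and Hoxa2 by 0.34, though Hoxa9 differed by -0.05 with the mean over both its probes. The 3 measured Hoxc genes were higher by 0.21 to 0.28. Hoxb7 and Hoxb9 were each lower by 0.25 on the log2 scale. The median of the 23 genes was 0.18, beside -0.05 for all genes. These shifts exceed the 0.08 of repeated spots, but the spread between cultures was not measured, and the SD over all genes of this comparison was 0.30. In L2AKO the median of 20 measured genes was -0.03, beside -0.08 for all genes, and turned positive, up to 0.07, under other scalings.

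The difference between the 2 LDL responses, L2AKO minus WT, could be formed for 18 genes. None passed 2-fold, 0 higher (1.39% of all genes) and 0 lower (0.721% of all genes). Values ranged from -0.46 for Hoxa9 and Hoxc4 to 0.28 for Hoxb8, that of Hoxa9 turning to 0.29 with the mean over both its probes. Of the 18 values, 15 were below 0, beside 6744 of 12491 over all genes. The median of the 18 was -0.18 beside -0.03 over all genes, and -0.38 to -0.07 under the alternative settings. The response of L2AKO includes the step between slides, and its part in this shift was not tested.

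**Figure D5:**
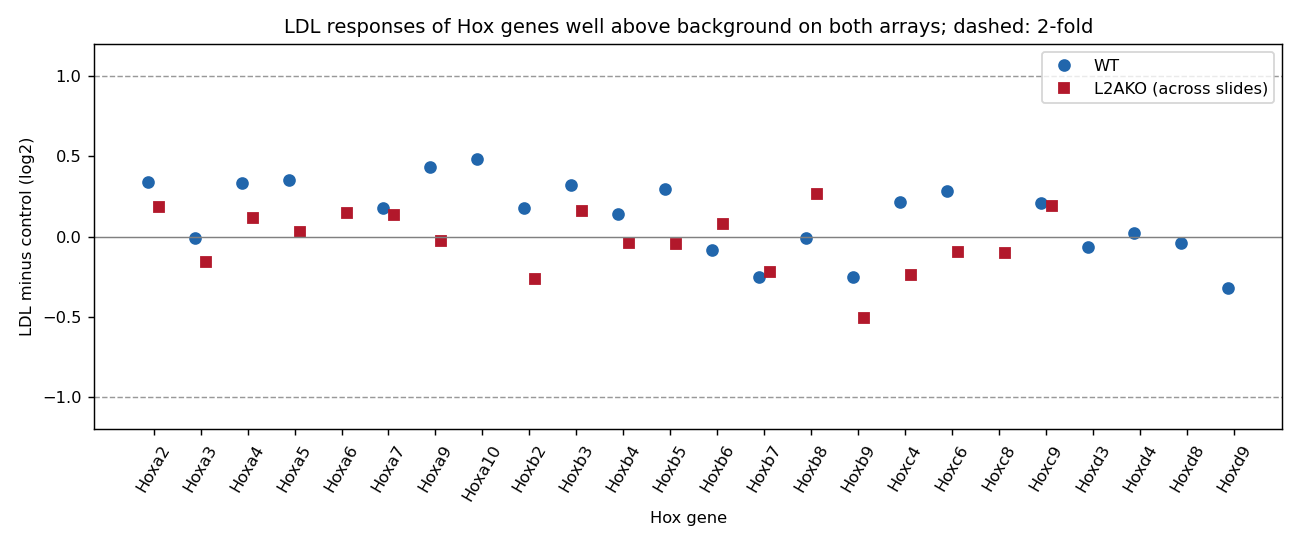
Log2 difference between LDL and control for each Hox gene described here that was well above background on both arrays, in WT (circles) and in L2AKO (squares, which compare 2 slides). Dashed lines mark 2-fold. All points lie between -0.51 and 0.48, inside the dashed lines, and the Hoxd genes and Hoxa10 have a WT point only.

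Genes that work with or on Hox genes were taken as fixed lists. Of all genes, 8.91% were 2-fold higher and 10.4% lower in L2AKO without LDL, and 9.12% and 12.3% with LDL, and the list counts stand beside these shares. Of the 9 TALE homeodomain genes, whose proteins bind DNA together with Hox proteins, all were measured on every array and 2 were 2-fold higher in L2AKO, with 0 lower, in each comparison. Meis1 had 3.97, 4.06, 5.63 and 5.63, and Meis2 had 2.96, 2.98, 4.08 and 4.03.

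Of 27 Polycomb genes, which keep Hox genes silent, 0 were 2-fold higher and 1 lower without LDL, and 4 were higher and 1 lower with LDL, beside 8.91% and 10.4% of all genes without and 9.12% and 12.3% with LDL. The lower gene was Phf19, an accessory subunit of the H3K27 methyltransferase, at 0.23, -0.11, -3.69 and -4.09. Of 9 trithorax and H3K27 demethylase genes with a probe, which keep Hox genes active, 0 were higher and 1 lower in each comparison, the H3K27 demethylase Kdm6a at -0.89, -0.69, -2.20 and -1.91.

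Of 15 genes of retinoic acid synthesis, breakdown and reception tested without LDL, 2 were 2-fold higher and 3 lower, as were 2 and 3 of 16 with LDL, beside the same shares of all genes. Aldh1a2, which makes retinoic acid, was 2.87, 2.60, -0.77 and -0.73. Cyp26b1, which breaks it down, was 2.73, 3.36, -1.16 and 0.09. Dhrs3, which turns retinal back to retinol, was 3.40, 4.48, 6.21 and 6.63, and the receptor Rarb differed by 1.46 without and 0.59 with LDL. Both Aldh1a2 and Cyp26b1 were thus lower in L2AKO in each comparison, and Dhrs3 higher. These genes were named for their difference without LDL.

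Of 6 axial regulators tested without LDL, 1 was higher and 2 lower, and of 5 with LDL 0 were higher and 2 lower. Fgf8 was lower by 1.10 on the log2 scale without LDL and differed by -0.14 with LDL. Cdx1 was well above background on the L2AKO control array only. Of 4 tested noncoding RNAs of the clusters, 0 were higher and 2 lower, the Hoxd3os1 and Hoxb5os described above, while Hoxaas2 had 0.11, 0.56, 0.74 and 1.39.

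A list of 43 other homeobox, T-box and regional transcription factors, which mark position or organ rather than the trunk axis, had 30 tested genes without LDL, of which 7 were higher and 14 lower. With LDL 8 were higher and 16 lower, again of 30. The shares over all genes were 8.91% and 10.4% without and 9.12% and 12.3% with LDL. Irx1 was 3.90 and 3.47 in WT and dim in L2AKO, a log2 bound of -8.23 without LDL. Irx3 and Hand2 were also dim in L2AKO only, with bounds of -4.17 and -3.29, and Msx1 was 0.36, -0.03, -3.02 and -3.32.

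Some markers of other cells of the aortic wall also differed between genotypes, in both directions. Of all genes, 8.91% were 2-fold higher and 10.4% lower in L2AKO without LDL, and 9.12% and 12.3% with LDL. The summed signal of 9 adventitial fibroblast markers, as a multiple of the array's 75th percentile, was 439, 385, 288 and 241, with 8, 8, 8 and 9 of 9 well above background. Within the list, 3 of 8 tested were 2-fold higher in L2AKO and 2 lower without LDL, and 3 and 4 of 9 with LDL. Serpinf1 and Pi16 were higher in L2AKO by 4.28 and 4.14 without LDL and Dcn was lower by 1.69 on the log2 scale. For 8 mesothelial and epithelial markers the sum was 62.9, 58.2, 19.3 and 22.5, with 7, 6, 6 and 7 well above background. Of 7 tested in each comparison, 2 were higher and 5 lower without LDL, and 2 and 4 with LDL. Cdh1 and Msln differed by -3.14 and -2.31 without LDL, and Lrrn4 by 3.40.

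The 11 smooth muscle markers summed to 256, 233, 234 and 243. Of 8 tested without LDL 2 were 2-fold higher in L2AKO and 1 lower, and of 7 with LDL 3 were higher and 1 lower. Of all genes, 8.91% were higher and 10.4% lower without LDL, and 9.12% and 12.3% with LDL. Tagln and Cnn1 differed by 1.27 and 1.11 without LDL and Actg2 by -1.73. Of 8 macrophage markers 4, 5, 5 and 5 were well above background, with sums of 30.8, 27.2, 31.0 and 48.5, and with Ptprc, Adgre1 and Fcgr1 dim on every array. Of 5 tested, 2 were higher and 0 lower in L2AKO in each comparison, beside the same shares of all genes. The 2 were Trem2, by 3.39 without and 2.49 with LDL, and Cd68, by 1.85 and 1.79. Of 8 endothelial markers 2, 2, 3 and 3 were well above background, with sums of 5.76, 4.60, 4.53 and 5.55. Cdh5, Tek, Tie1, Erg and Emcn were dim throughout. Of 3 tested in each comparison, 0 passed 2-fold without LDL and 1 was higher with LDL. The 5 neural crest and Schwann cell markers summed to 3.68, 4.38, 4.14 and 10.0, the last on slide 2, with 2 well above background on each array. Of these 2, 0 passed 2-fold without LDL and 1 was higher with LDL. The part of these differences in the Hox values was not tested.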

How the data were processed

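RNA of 4 groups was hybridised to 1-colour Agilent mouse arrays, 1 per group. Per the file headers, Feature Extraction 10.7.3.1 made the deposited spot intensity, which is linear and background-subtracted. A value table by the authors holds a linear signal with column medians of 57.6, 57.6, 57.5 and 57.4, and its between-array scaling stays unknown. RMA and oligo appear in the submitters' processing notes without a version.

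Control spots and outlier spots were left out, spots of a probe averaged as log2 values and the 75th percentile of 55679 probes subtracted. Accessions were matched to a GRCm38.p6 gene table, which named 28330 probes. The brightest probe stood for a gene. The 5 comparisons are differences between arrays, with no test. Of the 8 alternatives, 3 changed the scaling, 1 used normexp background correction (offset 50) on the median signal, and the others used the authors' values, all probes of a gene and other filters.

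Every Hox gene well above background on some array is named with its values, and up to 4 genes per other list by largest genotype difference. Some genes that this rule takes are not reported here, and counts include them. The Hox members, the 8 lists and 6 marker lists were chosen with earlier results of these data known. The rule for calling 2-fold differences was tested by adding known fold changes to WT control values of genes far above the floor. Scaling and the other steps were not tested in this way. R 4.3.3, limma 3.58.1, Python 3.11.15, numpy 2.4.6, pandas 2.3.3 and matplotlib 3.10.9 were used.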

Additional observations from a re-analysis of the deposited data

Results flagged for a closer look

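For 4 Hox genes the LDL response had opposite signs in the 2 genotypes with both values larger than the 0.076 of repeated spots. That figure covers spread within an array only, and the difference was not tested. Hoxa9, Hoxb4, Hoxb5 and Hoxb8 also had opposite signs, but 1 value of each was smaller than that spread, at -0.03, -0.04, -0.05 and -0.01. The share of all genes with opposite signs was not counted. Hoxb2 was 0.18 in WT and -0.26 in L2AKO, Hoxc4 was 0.22 and -0.24, Hoxc6 was 0.28 and -0.10, and Hoxb6 was -0.08 and 0.08, close to that spread and -0.02 in WT under an alternative scaling. Each rests on 1 array per group, and the L2AKO value compares 2 slides. Over 8 alternatives the sign stayed in both genotypes for Hoxb2, Hoxb6 and Hoxc4, while Hoxc6 in L2AKO kept it in 6 of 8 and reached 0.01.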

How the results depend on the processing

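No paired analysis was possible because each group has 1 array. With LDL, the count of Hox genes higher in L2AKO was 3 both after normexp with quantile normalisation and in the authors' deposited values (Hoxb7, Hoxb8, Hoxc6), and the count of lower genes 3 in each (Hoxa10, Hoxd4, Hoxd8). Restricted to genes well above background on both arrays, 0 were lower without LDL and 0 with LDL, because the lower genes are dim in L2AKO. With no filter on dim probes, which counts differences among dim values, 7 were higher without LDL (adding Hoxc5 and Hoxd12) and 6 with LDL (adding Hoxc5), 7 were lower without and 8 with LDL, LDL in WT gave 2 higher and 1 lower, LDL in L2AKO gave 1 lower, and the difference of responses gave 3 lower. Over the 8 alternatives the differences of Hoxc6 without LDL ranged from 3.63 to 4.12, of Hoxb7 from 1.73 to 1.91, of Hoxb8 from 1.39 to 1.89, of Hoxc4 from 1.22 to 1.82 and of Hoxc8 from 0.59 to 3.63. Those of Hoxd8 ranged from -7.36 to -3.22, of Hoxd4 from -5.29 to -1.61, of Hoxa10 from -5.0 to -1.39, of Hoxd9 from -3.51 to -0.48 and of Hoxd3 from -2.52 to -0.10. With LDL that of Hoxc4 ranged from 0.85 to 1.47. Hoxc8, Hoxd9, Hoxd3 and, with LDL, Hoxc4 thus pass 2-fold or not by the treatment of background. Scaling to the median moved the median of all genes with LDL from -0.05 to 0.15 and added Hoxa6 to the higher genes there (6 in all), and the mean over probes gave 6 lower ones there. The median of the Hox genes changed sign under some settings, ranging from -0.01 to 0.24 for LDL in WT, -0.26 to 0.07 for LDL in L2AKO and -0.05 to 0.21 between genotypes without LDL.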
